A study of Mus musculus with 88 samples.

Results

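Jarid2 null and WT mouse embryonic stem cells (ESCs) were compared after 24 h of differentiation toward mesoderm, by bulk RNA sequencing of 2 libraries per genotype. These were all 4 libraries labelled mesoderm, 24 h and either Jarid2 null or WT, of 24 in the mesoderm series and 88 samples in the whole study. A test was possible for 18361 genes. The question of the comparison was how expression differs without JARID2 early in a differentiation directed away from pluripotency. Because each genotype had 2 libraries, every call was repeated without each of the 4 libraries in turn.

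All cells were grown in serum and LIF, and labelled as strain E14. For mesoderm, they then received Activin A, BMP4, CHIR99021 (an inhibitor of GSK3 that activates the Wnt pathway) and FGF2 for 24 h, a mixture meant to give the mid primitive streak, the embryonic structure from which mesoderm and endoderm arise. Undifferentiated cells of the same lines, and cells taken toward endoderm for 24 h with Activin A, CHIR99021 and FGF2, were used for comparison and came from other libraries. The study ran the directed differentiations as technical duplicates, so the p-values given here measure only the spread between such libraries. There was 1 line per genotype. The study's methods name another WT line, JM8, as the matched background of the Jarid2 null line in bulk RNA sequencing. The libraries compared here are labelled E14, so which WT line was used is not clear. Genotype and line therefore cannot be told apart.

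JARID2 is a subunit of Polycomb repressive complex 2 (PRC2), which places trimethylation on lysine 27 of histone H3 and keeps many developmental genes silent in ESCs. It belongs to the PRC2.2 form of the complex, whereas MTF2 belongs to PRC2.1. At the primitive streak, Nodal, Wnt, BMP and FGF signals act together, each inducing its own inhibitors: LEFTY1 and LEFTY2 are secreted antagonists of NODAL, NOTUM and SFRP1 are secreted antagonists of WNT, and the DUSP phosphatases limit the ERK kinases downstream of FGF.

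The 4 libraries held 11943131 and 9824224 counts (Jarid2 null replicates 1 and 2) and 11242721 and 13411313 counts (WT replicates 1 and 2), within the 9111880 to 16898264 of the series. Levels are given as CPM, counts scaled by library size and TMM (trimmed mean of M values), and differences as log2 fold changes of Jarid2 null over WT with their standard error (SE). The duplicates of each of 12 groups differed by more than sampling noise (chi-square per gene at least 3.2). Over 10961 genes with a mean of 5 CPM or more in the series, the SD of the log2 ratio between duplicates was 0.304 in Jarid2 null and 0.198 in WT, against 0.241 to 0.365 in the other 10 groups.

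Jarid2 transcript was not absent from the Jarid2 null libraries. It stood at 189 and 220 CPM in Jarid2 null and at 318 and 337 CPM in WT, a log2 fold change of -0.68 (SE 0.12, edgeR quasi-likelihood adjusted p = 0.0005). At 48 h the levels were 397 and 448 CPM in Jarid2 null and 407 and 388 CPM in WT. A count over the whole gene does not show whether a deleted part is missing, so it does not check the label. Mtf2 (0.22, SE 0.15) and Eed (0.22, SE 0.12), other PRC2 subunits, did not pass. None of the 12 PRC2 subunit genes was called, against 1.97% of all genes.

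Markers bore out the labelled cell state only in part. T, the transcription factor that defines the streak, rose in WT from 0.197 and 0.17 CPM undifferentiated to 55.6 and 59.8 CPM at 24 h, and Eomes, another streak factor, reached 12.7 and 12 CPM. Mixl1 stayed at 0.542 and 0.729 CPM and Mesp1 at 0 and 0.0746 CPM in WT, and the ESC genes Pou5f1 (717 and 681 CPM), Esrrb (507 and 499 CPM) and Nanog (233 and 213 CPM) were still high, and of these only Nanog had an adjusted p under 0.001 against undifferentiated WT cells (-0.94). Of endoderm markers, Cer1 had no count in any of the 4 libraries and Sox17 and Foxa2 were at most 1.29 CPM. Cxcr4 was at 1.97 and 1.22 CPM in Jarid2 null and rose in WT from 0.69 and 0.256 CPM undifferentiated to 1.72 and 2.55 CPM (adjusted p = 0.0023). In bulk RNA, fewer cells of a type and less RNA per cell cannot be told apart.

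Calls required an adjusted p (Benjamini-Hochberg, over all genes) below 0.001 together with an absolute log2 fold change of more than 1. By this rule 362 genes (1.97% of those tested) differed, 135 higher in Jarid2 null (0.735%) and 227 lower (1.24%). Without composition scaling the split was 208 higher and 130 lower, and the median over all genes moved from -0.04 to 0.09. With offsets for transcript length and GC content, chosen after seeing the data, 308 genes (1.68%) were called, 154 higher (0.839%) and 154 lower (0.839%). All 362 called genes had library values that did not overlap between genotypes, as did 65.9% of all genes tested (29.5% higher and 36.4% lower). Among them, the predicted gene Gm21293 rested on 17 and 17 counts in WT and none in Jarid2 null.

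**Figure D1:**
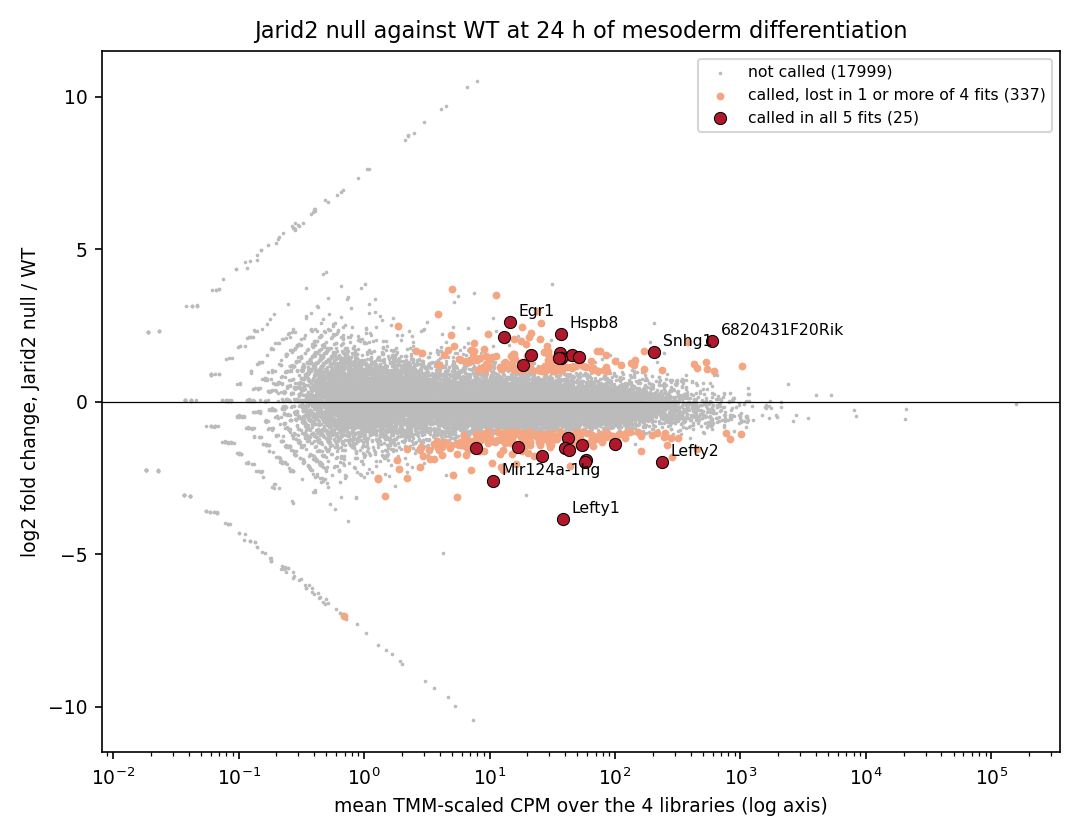
Each point is 1 of 18361 genes, plotted by mean TMM-scaled CPM over the 4 libraries (log axis) and log2 fold change of Jarid2 null over WT. Of 362 called genes, 25 (red) were also called in each of the 4 fits without 1 library and 337 (orange) were not.

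Most calls were lost when Jarid2 null replicate 1 or either WT library was left out. Without Jarid2 null replicate 1, 27 genes were called, and 26 of the 362 (7.18%) were among them. Without WT replicate 1, 63 were called and 62 of the 362 held. Without WT replicate 2, 60 were called and 58 held. Without Jarid2 null replicate 2, by contrast, 497 were called and 285 held (78.7%). Each such fit leaves 1 library in a group, which is assumed to vary like the other groups. Fewer libraries by themselves lower the number of calls, so a lost call does not show that 1 library carried it. No called gene changed direction in any of the 4 fits.

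The 2 Jarid2 null libraries did not differ from WT to the same extent. Replicate 1 lay further from the WT mean than replicate 2 in 330 of 362 called genes and in 63.8% of all genes. Both lay on the same side of WT in all 362, which the choice of called genes fixes. The median difference from the WT mean on log2(CPM + 0.5) was 1.45 in replicate 1 and 1.11 in replicate 2 for genes called higher, and -1.41 and -1.01 for genes called lower.

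**Figure D2:**
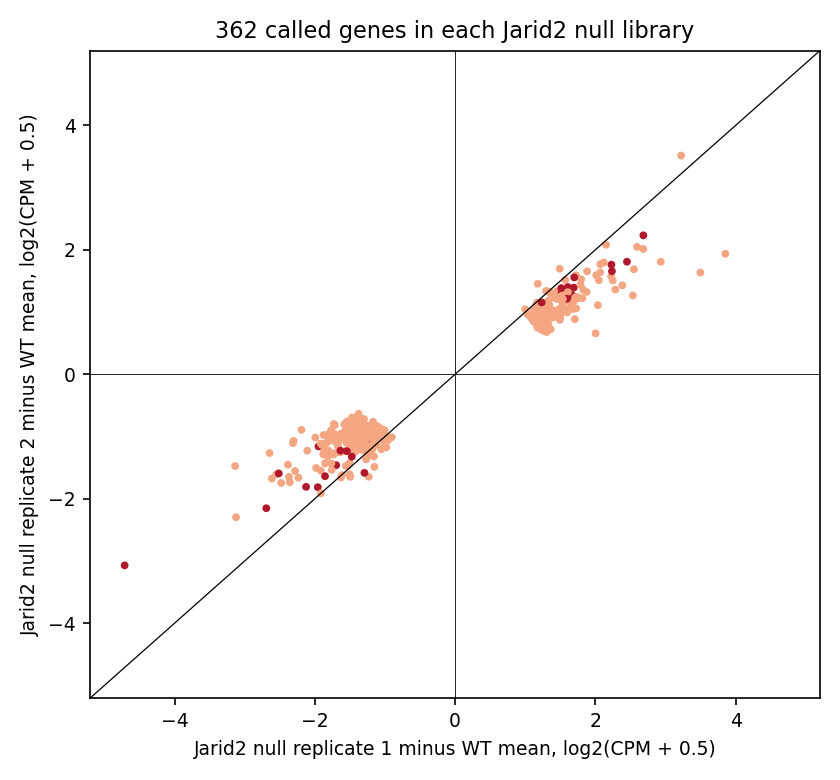
Each point is 1 of the 362 called genes, with the difference of Jarid2 null replicate 1 (x) and replicate 2 (y) from the mean of the 2 WT libraries in log2(CPM + 0.5). Red points are the 25 genes called in all 5 fits, and the diagonal marks equal differences. Most points lie nearer to the x axis than to the y axis, since replicate 1 differed more for 330 genes.

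The genes that held when any 1 library was left out numbered 25 (0.136% of those tested), 12 higher (0.0654%) and 13 lower (0.0708%). The genes lower in Jarid2 null were Lefty1, Mir124a-1hg, Lefty2, Ccnd1, Fgf4, Fzd10, Sfrp1, Oat, Bloc1s1, Ptk2b, Wdr6, Notch3 and Tyro3. Those higher were Egr1, Hspb8, Napb, 6820431F20Rik, Snhg1, Rassf1, Tbc1d9, 1810032O08Rik, Snhg15, Gm21811, Rhbdd1 and 2700099C18Rik. A further 20 genes held in 3 of the 4 fits, 30 in 2, 211 in 1 and 76 in none. All 25 were called with length and GC offsets too, and 20 of them in each leave-one-out fit with those offsets. In a fit of only the 4 libraries, where the spread is not shared with other groups, 3 of the 25 (Ccnd1, Fgf4 and Snhg15) stayed called, and all 25 kept their direction with adjusted p from 0.00086 to 0.0049.

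**Figure D3:**
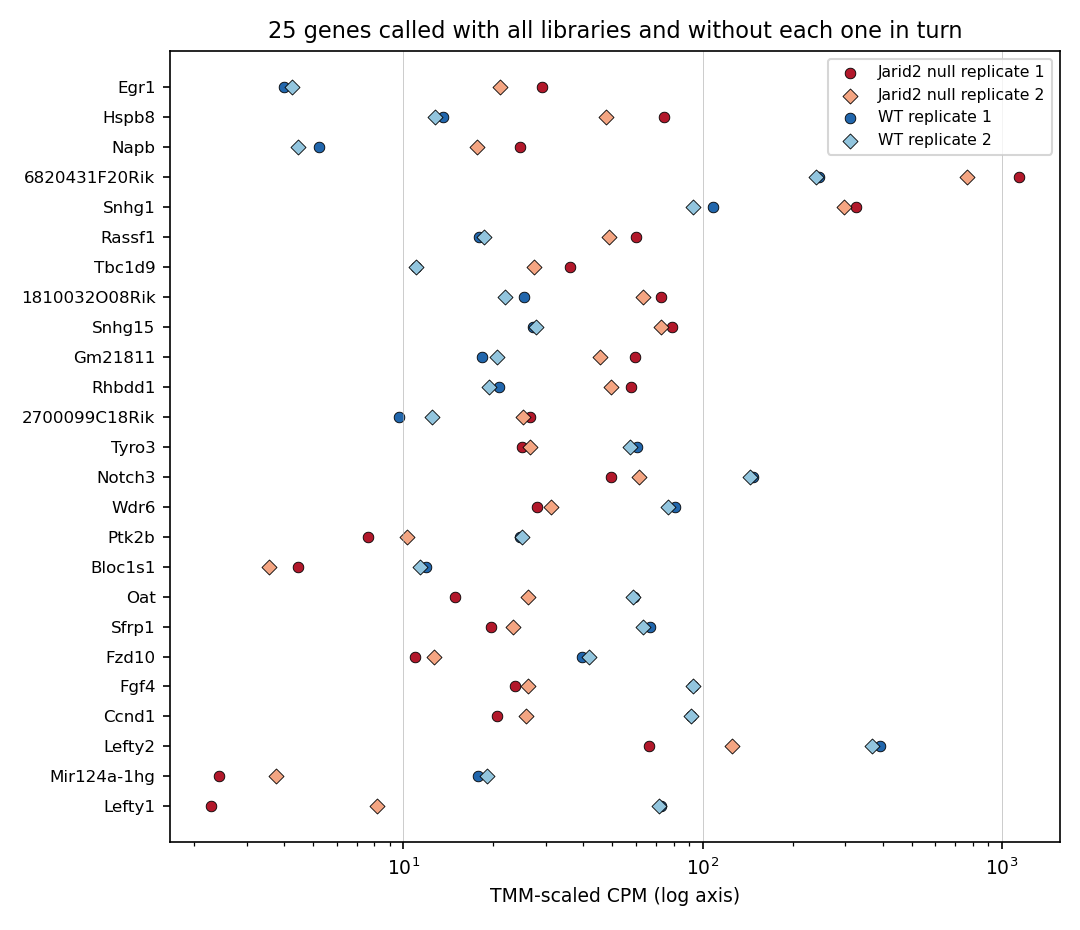
TMM-scaled CPM (log axis) of the 25 genes called with all libraries and without each of the 4 in turn, with 1 symbol per library. In every gene, as in all called genes, the red and orange symbols of Jarid2 null lie on 1 side of the blue symbols of WT. For Lefty1 the Jarid2 null libraries stand at 2.27 and 8.14 CPM against 72.6 and 71.6 CPM.

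Promoters of 4 called genes are shown, from RefSeq on GRCm38.p6, each from 250 bases before to 50 bases after the annotated start and read 5′ to 3′ on the gene's strand. Fgf4 and Hspb8 held in all 4 fits without 1 library, and Hspa1a and Fos in only 1. Fgf4 (chr7:144861136-144861435, plus strand) had the lowest adjusted p of all called genes. Hspb8 (chr5:116422815-116423114, minus strand), Hspa1a (chr17:34972107-34972406, minus strand) and Fos (chr12:85473640-85473939, plus strand) were among the genes higher in Jarid2 null. Capitals mark matches on either strand to 6 motifs: the AP-1 site TGANTCA, the cAMP response element core TGACG, the paired heat shock element GAANNTTC, the TCF/LEF core CTTTGA, the TATA box TATAAA and the CCAAT box CCAAT.
Fgf4: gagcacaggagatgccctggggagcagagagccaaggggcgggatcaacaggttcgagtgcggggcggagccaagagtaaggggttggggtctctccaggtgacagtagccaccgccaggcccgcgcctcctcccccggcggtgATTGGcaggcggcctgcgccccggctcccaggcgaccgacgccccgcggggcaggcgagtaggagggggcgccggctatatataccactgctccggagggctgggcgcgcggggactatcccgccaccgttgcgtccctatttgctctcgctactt
Hspb8: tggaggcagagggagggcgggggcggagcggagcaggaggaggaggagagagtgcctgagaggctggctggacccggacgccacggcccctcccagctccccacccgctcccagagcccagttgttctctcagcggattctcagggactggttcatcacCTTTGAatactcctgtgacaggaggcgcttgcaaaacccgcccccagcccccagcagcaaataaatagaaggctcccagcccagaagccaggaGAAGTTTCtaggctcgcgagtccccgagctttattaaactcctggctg
Hspa1a: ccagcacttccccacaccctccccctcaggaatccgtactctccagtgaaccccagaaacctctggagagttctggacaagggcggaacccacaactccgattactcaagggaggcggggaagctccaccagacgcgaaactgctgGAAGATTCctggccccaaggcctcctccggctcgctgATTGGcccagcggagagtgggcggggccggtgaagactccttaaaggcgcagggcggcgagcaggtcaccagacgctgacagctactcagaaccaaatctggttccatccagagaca
Fos: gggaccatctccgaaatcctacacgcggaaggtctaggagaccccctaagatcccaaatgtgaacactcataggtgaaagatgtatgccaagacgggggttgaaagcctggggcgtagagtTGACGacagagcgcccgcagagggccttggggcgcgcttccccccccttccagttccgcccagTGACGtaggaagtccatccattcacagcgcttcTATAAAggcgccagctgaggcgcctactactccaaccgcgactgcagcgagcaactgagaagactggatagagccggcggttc

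In these windows, the paired heat shock element began at base -104 in Hspa1a and at base 3 in Hspb8, counted from the start of transcription, and the cAMP response element core at bases -129 and -66 in Fos. Windows on chromosome 18, where Egr1 lies, were left out, and 1 window was kept per gene. Of genes called higher, 84 of 135 had a window, of genes called lower 176 of 227, and of all genes tested 11861. The heat shock element was found in 9.52% of windows of genes called higher, 3.98% of those called lower and 5.84% of all tested, and the cAMP response element core in 35.7%, 27.8% and 29.9%. The TCF/LEF core was found in 9.52%, 10.8% and 12.1%, AP-1 in 4.76%, 6.25% and 5.06%, the TATA box in 10.7%, 8.52% and 7.77%, and the CCAAT box in 40.5%, 39.8% and 38.9%. Over the 27025 windows kept in this way, for genes tested or not, the heat shock element stood in 7.95%, the cAMP core in 21.0% and the TCF/LEF core in 16.2%. AP-1 stood in 7.93% of them, the TATA box in 14.2% and the CCAAT box in 37.9%. None of the motifs overlap in these 4 windows, and a match describes only the letters.

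Of the Nodal pathway genes, the Lefty antagonists, which are themselves induced by NODAL, were lower in Jarid2 null. Lefty1 (chr1:180935022-180938400) stood at 2.27 and 8.14 CPM in Jarid2 null and at 72.6 and 71.6 CPM in WT (log2 fold change -3.84, SE 0.33, adjusted p = 1.8e-06). Its neighbour Lefty2 (chr1:180893108-180899103) stood at 66 and 125 CPM against 391 and 368 CPM (-1.99, SE 0.22, adjusted p = 1.3e-05). For both genes the Jarid2 null libraries lay below the WT libraries, as for every gene called lower. The Jarid2 null libraries differed from each other more than the WT duplicates did.

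Nodal itself, the ligand, was at 37 and 40 CPM against 65.8 and 66.3 CPM, a log2 fold change of -0.78 (SE 0.13, adjusted p = 0.00032) that passed the p limit but not the fold limit. Tdgf1, the co-receptor, was at 70.6 and 89.9 against 128 and 135 CPM (-0.71, SE 0.18), and Smad7, an intracellular inhibitor, at 95.3 and 124 against 183 and 187 CPM (-0.76, SE 0.14, adjusted p = 0.00098). Skil, a repressor of SMAD targets, was at 89.3 and 84.1 against 92.8 and 88.9 CPM (-0.07, SE 0.10). Of 14 Nodal and Activin pathway genes tested, 2 were called lower, against 1.24% of all genes, and none higher. A negative value was found for 13 of them, and for 52.7% of all genes. The median was -0.70, against -0.04 over all genes, and -0.56 without Jarid2 null replicate 1.

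Fgf4, the FGF ligand that ESCs secrete and that drives their exit from pluripotency, had the lowest adjusted p of the genes called. Fgf4 was at 23.6 and 26.1 CPM in Jarid2 null and at 93.2 and 93 CPM in WT (-1.91, SE 0.12, adjusted p = 1.5e-08), and stayed between -1.91 and -1.84 whichever library was left out. Fgf17, another ligand, was lower at 1.44 and 2.53 against 5.42 and 6.35 CPM, but held in only 1 of 4 fits.

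Genes downstream of FGF did not all move in 1 direction. Egr1, an immediate early transcription factor induced by ERK, was higher at 29.1 and 21.1 CPM against 3.98 and 4.23 CPM (2.61, SE 0.28, adjusted p = 9.8e-06). Fos (2.88, SE 0.46) and Dusp4 (1.09, SE 0.17) were also higher, each held in 1 of 4 fits. Spry4 (-0.36, SE 0.14), Spry2 (-0.09, SE 0.12), Etv4 (-0.02, SE 0.18) and Etv5 (-0.34, SE 0.14), which are standard readouts of FGF signalling, were not called. Of 22 genes of this list, 3 were called higher, against 0.735% of all genes, and 2 lower, against 1.24%. The median was -0.15.

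The Wnt genes that fell included a receptor and secreted antagonists. Fzd10, a Frizzled receptor for WNT ligands, was at 10.9 and 12.7 CPM against 39.7 and 41.7 CPM (-1.79, SE 0.14, adjusted p = 5e-07). Sfrp1 was at 19.7 and 23.3 CPM against 66.7 and 63.3 CPM (-1.60, SE 0.15, adjusted p = 2.8e-06). Notum was at 3.02 and 6.27 CPM against 19.9 and 20.4 CPM (-2.14, SE 0.25) and held in 3 of 4 fits. In each, both Jarid2 null libraries lay below both WT libraries, as for every gene called lower.

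Ccnd1, the cyclin that drives passage through G1 and is a target of both Wnt and FGF signals, was at 20.6 and 25.7 CPM in Jarid2 null and at 91.5 and 91.3 CPM in WT (-1.99, SE 0.16, adjusted p = 5e-07). It was the only gene called among 17 G1 cyclins and CDK inhibitors, a list drawn up after values were seen, against 1.24% of all genes called lower. Sp5, a direct target of the Wnt pathway at the streak, was at 7.94 and 9.73 against 20.9 and 21.8 CPM (-1.28, SE 0.20), and held in none of the 4 fits. Axin2, the most widely used Wnt target, was at 111 and 114 against 139 and 146 CPM (-0.35, SE 0.10, adjusted p = 0.019) and was not called, nor was Tcf7 (-0.32, SE 0.13). Of 16 Wnt targets and feedback genes, 4 were called lower, against 1.24% of all genes, and none higher. The median was -0.33, against -0.04 over all genes.

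Of BMP genes, Bmp4, the ligand also supplied in the medium, was at 18.6 and 29.2 CPM against 50.4 and 49.2 CPM (-1.07, SE 0.18), and Id3, a target, at 8.47 and 12.6 against 24.1 and 20 CPM (-1.07, SE 0.18). Both were called lower and both held in 1 fit. Id1 (-0.60, SE 0.16), another target, and Bmpr1a (0.13, SE 0.12), a receptor, were not called. Bmp2 was at 0.907 and 1.12 against 0.452 and 0.292 CPM (1.44, SE 0.58, adjusted p = 0.082). Of 19 genes of the list, 2 were called lower, against 1.24% of all genes, and none higher, with a median of -0.18.

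Notch3, a Notch receptor, was at 49.5 and 61.4 CPM against 147 and 144 CPM (-1.39, SE 0.14, adjusted p = 5.1e-06). Tyro3, a receptor kinase, was at 24.9 and 26.5 against 60.3 and 57.4 CPM (-1.20, SE 0.12). Ptk2b, a cytoplasmic kinase, was at 7.64 and 10.3 against 24.6 and 24.9 CPM (-1.48, SE 0.13). These 3 receptor and kinase genes held in all 4 fits and, like every called gene, did not overlap between genotypes. Mir124a-1hg, the host transcript of a neural microRNA, was at 2.42 and 3.74 against 17.7 and 19 CPM (-2.60, SE 0.24, adjusted p = 2.4e-06). Oat, an enzyme of ornithine metabolism, was at 14.9 and 26.1 against 59.2 and 58.6 CPM (-1.54, SE 0.17). Bloc1s1, a subunit of a lysosome biogenesis complex, was at 4.46 and 3.55 against 11.9 and 11.4 CPM (-1.53, SE 0.18). Wdr6 was at 28 and 31.1 against 81.2 and 76.4 CPM (-1.41, SE 0.14).

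Of 15 streak regulators, 2 were called lower, against 1.24% of all genes. T was at 22 and 39.8 CPM in Jarid2 null against 55.6 and 59.8 CPM (-0.91, SE 0.25, adjusted p = 0.012) and Eomes at 6.88 and 6.17 against 12.7 and 12 CPM (-0.92, SE 0.22, adjusted p = 0.0053), and neither was called. Cdx2, a caudal-type homeobox gene, was called, at 0.832 and 1.22 against 4.52 and 4.52 CPM (-2.15, SE 0.36), but held in none of the 4 fits. Wnt3, a streak ligand, was at 0.529 and 0.935 against 3.71 and 3.57 CPM (-2.32, adjusted p = 0.0021) and missed the limit. Those called were Cdx2 and Sp5, and 12 of the 15 had a negative value, as did 52.7% of all genes, with a median of -0.78. Foxh1 (-0.04, SE 0.19), a partner of SMAD proteins, and Cdx1 (-0.25, SE 0.19) were not called.

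Of 18 naive and 13 core pluripotency genes, 3 and 1 were called lower, against 1.24% of all genes, and none higher. Pou5f1 was at 371 and 446 CPM against 717 and 681 CPM (-0.78, SE 0.16, adjusted p = 0.0015). Nanog was at 114 and 137 against 233 and 213 CPM (-0.83, adjusted p = 0.00011) and Sox2 at 128 and 133 against 228 and 214 CPM (-0.76, adjusted p = 0.00053). All 3 of these core factors lay below WT in both Jarid2 null libraries without reaching the fold limit. Of all genes tested, 36.4% were likewise lower in Jarid2 null without overlap.

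Esrrb (-0.11, SE 0.16), Tfcp2l1 (0.10, SE 0.16) and Klf4 (-0.09), which belong to the naive network, were not called, and Klf5 was at 729 and 664 against 458 and 456 CPM (0.61, SE 0.15, adjusted p = 0.0068). The naive genes called were Fgf4, Tcl1 and Klf2, with a median of -0.72 over the list, and -0.43 without Jarid2 null replicate 1. The core gene was Dppa5a (-1.57, SE 0.27), with a median of -0.70 over the list, and -0.55 without that library. Tcl1, Klf2 and Dppa5a each held in 1 of 4 fits. Dppa5a was at 135 CPM in Jarid2 null replicate 1 and at 317 CPM in replicate 2, against 719 and 619 CPM. Of 15 formative genes, 2 were called lower, against 1.24% of all genes, with a median of -0.32. Foxd3 (-1.72, SE 0.31) held in none of the 4 fits and was not called with length and GC offsets. Tcf15 (-1.58, SE 0.21) held in 2 fits.

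In each of 3 lists of later lineages 1 gene was called lower, against 1.24% of all genes, and none higher. Tubb3 (-1.78, SE 0.19), a neuronal tubulin that held in 3 of 4 fits, was called among 19 neural ectoderm genes. Of those 19 genes, 12 had a positive value, as did 46.9% of all genes. Their median was 0.40, and 0.0 without Jarid2 null replicate 1. Trh (-1.41, SE 0.25), a hormone precursor that held in 1 fit, was called among 11 definitive endoderm genes (median -0.235). Bmp4 was called among 16 lateral and cardiac mesoderm genes (median -0.11). Col18a1 (-1.15, SE 0.14), which held in 3 fits, was called lower among 18 basement membrane genes, against 1.24% of all genes. Of those 18 genes, 17 had a negative value, as did 52.7% of all genes (median -0.62). Hk1, a hexokinase (-1.05, SE 0.16) that held in none of the fits, was called lower among 23 glycolysis and hypoxia genes (median -0.46), against 1.24% of all genes. Nes, a neural intermediate filament gene, was at 24.3 and 8.79 against 5.88 and 3.79 CPM (1.81, SE 0.37, adjusted p = 0.0017) and was not called.

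In 11 of 25 lists, with 156 genes tested, no member was called, against 1.97% of all genes, and their medians lay between -0.27 and 0.86. At that share few calls fall in lists of this size, so the lack of calls does not set these 11 lists apart. They were the PRC2 subunits, endothelial and blood progenitor genes, germline genes, epithelial-mesenchymal transition genes, imprinted genes, Hox genes, p53 targets, DNA methylation enzymes, line and sex marker genes, and the markers of primitive and visceral endoderm and of feeder fibroblasts. The highest of these medians was that of 10 Hox genes, all with a positive value, as had 46.9% of all genes. The most abundant of them, Hoxc13, was at 10.5 and 9.26 against 9.67 and 9.34 CPM (0.06). Of 10 trophoblast markers only Cdx2 was called, lower, against 1.24% of all genes. Gata6, an endoderm factor, was at 1.44 and 1.31 against 0.723 and 0.875 CPM (0.77, SE 0.42).

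Genes higher in Jarid2 null included many immediate early and stress genes, and the lists for them were drawn up after their values were seen. Of 24 immediate early genes, 11 were called higher, against 0.735% of all genes, and 1, Myc (-1.13, SE 0.20), lower, against 1.24%. The median was 1.16 against -0.04 over all genes. Jun was at 54 and 27.6 CPM against 10.4 and 9.48 CPM (2.05, SE 0.30) and Atf3 at 23.5 and 19 against 5.33 and 5.11 CPM (2.03, SE 0.33). Without Jarid2 null replicate 1 only Egr1 of this list was called, and the median was 0.72. The others called were Fos, Ccn1 (2.11, SE 0.29), Gadd45b (2.17, SE 0.33), Maff (1.88, SE 0.23), Zfp36 (1.64, SE 0.27), Ccn2 (1.54, SE 0.27), Dusp1 (1.44, SE 0.25) and Klf6 (1.34, SE 0.16). Their part in the other differences was not tested.

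Of 18 heat shock genes, a list drawn up after their values were seen, 3 were called higher, against 0.735% of all genes. Hspb8, a small chaperone, was at 74.4 and 47.5 CPM against 13.6 and 12.8 CPM (2.21, SE 0.21, adjusted p = 2.4e-06). Hspa1a was at 32.8 and 8.32 CPM against 1.72 and 1.9 CPM (3.51, SE 0.46), and Hspa1b at 66.7 and 18 against 5.42 and 5.47 CPM (2.96, SE 0.42). These 2 inducible HSP70 genes are near-identical copies, so the division of reads between them is uncertain. Both were higher in Jarid2 null replicate 1 than in replicate 2, and each held in 1 of 4 fits. The other 15 heat shock genes were not called, and the median of all 18 was -0.02, and 0.01 with RLE scaling and 0.11 without composition scaling.

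Hmox1, the haem-degrading enzyme of the oxidative stress response, was at 745 and 475 CPM against 164 and 154 CPM (1.94, SE 0.29, adjusted p = 0.00015), and Slc7a11, the cystine transporter, at 28.4 and 22.5 against 5.42 and 6.93 CPM (2.04, SE 0.32). Sqstm1, an autophagy receptor, was also higher (1.29, SE 0.22), whereas Nqo1, a quinone reductase of the same pathway, was lower at 29.9 and 36.1 against 70.1 and 64.6 CPM (-1.03, SE 0.14). Of 18 Nfe2l2 pathway genes 4 were called higher, against 0.735% of all genes, and 1 lower, against 1.24%, with a median of 0.04. Of 20 Atf4 pathway genes 3 were called higher (Slc7a11, Stc2 and Vldlr), against 0.735% of all genes, with a median of 0.91. None of these held in all fits.

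Snhg1 was at 327 and 296 CPM against 108 and 93 CPM (1.63, SE 0.15, adjusted p = 1.9e-06) and Snhg15 at 79.2 and 72.4 against 27.1 and 27.7 CPM (1.47, SE 0.12, adjusted p = 1.1e-06). Both are spliced host transcripts of small nucleolar RNAs, and both held in all 4 fits. They were the only ones called of 12 such genes, a list drawn up after values were seen, against 0.735% of all genes called higher. The median of the 12 was 0.40.

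The other genes that held included Napb, a factor of vesicle fusion, at 24.5 and 17.6 CPM against 5.24 and 4.45 CPM (2.12, SE 0.21), and Rassf1, a growth inhibitor, at 60.1 and 48.7 against 17.9 and 18.6 CPM (1.58, SE 0.16). Tbc1d9, a Rab regulator, was at 36.1 and 27.4 against 11 and 11 CPM (1.53, SE 0.16). In all of these both Jarid2 null libraries lay above both WT libraries, as for every gene called higher. Rhbdd1, a rhomboid protease, was at 57.8 and 49.6 against 20.9 and 19.3 CPM (1.42, SE 0.16), and 1810032O08Rik, a transcript of unknown function, at 72.9 and 63.1 against 25.4 and 21.9 CPM (1.53, SE 0.15). 6820431F20Rik was the most abundant of the genes that held in all 4 fits and were higher, at 1145 and 766 CPM against 246 and 239 CPM (1.98, SE 0.18). It, Gm21811 (1.44, SE 0.15) and 2700099C18Rik (1.21, SE 0.13) are annotated as pseudogenes, and since they can share reads with related copies their values are uncertain. The other most abundant genes called higher, neither of which held in all 4 fits, were Gm47164 (1.18, SE 0.17) and Mid1, a ubiquitin ligase (1.01, SE 0.15).

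Transcript length and base composition moved with the result. Over protein-coding genes, the median log2 fold change rose from -0.48 for transcripts of 700 to 1000 nt to 0.08 for those of 6000 nt or more. By GC content of the longest transcript, it fell from 0.30 under 40% to -0.37 at 60% or more. Protein-coding genes called lower had a median length of 2290 nt and a median GC of 54.5%, those called higher 4014 nt and 48.5%, and all tested 3435 nt and 49.9%.

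The GC trend was of like size in both Jarid2 null libraries, from 0.31 to -0.33 in replicate 1 and from 0.22 to -0.31 in replicate 2. The length trend was steeper in replicate 1, whose shortest transcripts were 0.41 below those of replicate 2 in median. Neither trend was found in undifferentiated cells or in endoderm at this size, where the medians of the GC bins ran from -0.14 to 0.12 and from -0.12 to 0.10, lowest in the bin of lowest GC. With offsets for both, 220 of the 362 genes were still called, 94 of 135 higher and 126 of 227 lower.

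Ribosomal protein genes have short, abundant transcripts. Of 85 such genes, a list drawn up after seeing values, 84 had a negative value, as did 52.7% of all genes. Their median was -0.61. Of these genes 5 were called lower, against 1.24% of all genes. Rpl37a was at 69.8 CPM in Jarid2 null replicate 1 and at 183 CPM in replicate 2, against 453 and 426 CPM. Together they took 3.04% and 4.11% of counts in Jarid2 null and 5.16% and 4.99% in WT, against 4.1% to 5.93% in the other 20 libraries of the series, so that replicate 1 lay below all of them. With the offsets the median was -0.49 and 1 of them was called.

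Tubulin genes, also a list drawn up after their values were seen, had mostly negative values. Of 14 tested, 7 were called lower, against 1.24% of all genes, with a median of -0.93. The summed level of the 14 was 1515 and 1972 CPM in Jarid2 null and 3711 and 3588 CPM in WT. Tuba1b was at 392 and 584 CPM against 1168 and 1135 CPM, and Tubb5 at 561 and 743 against 1377 and 1332 CPM. Tubulins are similar in sequence, so reads may be divided among them. With offsets 2 of the 7 were called, and without Jarid2 null replicate 1 none was. The 13 mitochondrially encoded protein genes had a median of -0.18, with mt-Co2 called lower (-1.62, SE 0.29), against 1.24% of all genes. The 2 mitochondrial rRNA genes, which the depletion of ribosomal RNA should remove, summed to 39.5 and 16.5 CPM in Jarid2 null and 4.88 and 2.77 CPM in WT. Of these, mt-Rnr1 (3.27, adjusted p = 0.0258) and mt-Rnr2 (2.75, adjusted p = 0.0596) were not called. Among the 4 libraries they were highest in Jarid2 null replicate 1. Mitochondrial rRNA took 0.00437% and 0.00179% of counts in Jarid2 null, within the 0.000273% to 0.013% of the other 20 libraries. The part of rRNA depletion in the other results was not tested. Autosomes had medians between -0.16 and 0.07.

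The difference at 24 h was set against that in undifferentiated cells, where 68 genes (0.37%) were called between the same lines, 31 higher (0.169%) and 37 lower (0.202%). Of these, 18 were among the 362 at 24 h, 17 in the same direction. The median difference in undifferentiated cells was 0.50 for genes called higher at 24 h and -0.32 for those called lower. Lefty2 was already lower, at 30.5 and 22.9 CPM against 107 and 74.5 CPM (-1.76, SE 0.23). Rhbdd1 (1.09, SE 0.17), Gm21811 (1.03, SE 0.15) and 6820431F20Rik (1.08, SE 0.17) were called there as well.

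The change in the difference itself was tested by an interaction, which called 25 genes (0.136%), 8 with a more positive difference at 24 h (0.0436%) and 17 with a more negative one (0.0926%). Only 3 of these held without each of the 8 libraries in turn. Fgf4 was at 158 and 158 CPM in undifferentiated Jarid2 null cells against 197 and 188 CPM in WT, so that the difference widened by -1.63 (SE 0.16, adjusted p = 3.6e-05). Egr1 was at 1.41 and 1.91 against 6.6 and 5.2 CPM before differentiation, lower in Jarid2 null, and turned higher at 24 h (4.43, SE 0.44, adjusted p = 3.6e-05). Srgap3 turned the other way, from 11.9 and 15.6 against 6.7 and 4.43 CPM to 3.25 and 3.46 against 10.8 and 9.48 CPM (-2.91, SE 0.30, adjusted p = 4.4e-05).

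At 24 h of endoderm differentiation, in libraries with none in common, 6 genes (0.0312%) were called lower and none higher, with 963 genes higher at an unadjusted p under 0.05 and 1 called higher by DESeq2. The direction of the 362 genes was nevertheless mostly shared. Of 135 genes called higher in mesoderm 116 (85.9%) had a positive value in endoderm, as did 48.5% of all genes, and of 227 called lower 191 (84.1%) had a negative value, as did 51.2% of all. The sizes were smaller, as selection on the mesoderm difference favours, with medians of 0.35 and -0.17 against 1.36 and -1.23 in mesoderm, and 17 of the 362 had an adjusted p under 0.05 there, all in the same direction.

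All 25 genes that held had the same sign in endoderm, and each difference was smaller in size than in mesoderm, which choosing genes for a large mesoderm difference by itself favours. Fgf4 was at 71.6 and 58.9 CPM against 107 and 103 CPM (-0.69, SE 0.12, adjusted p = 0.0082) and Rassf1 at 23.9 and 33.1 against 16 and 15 CPM (0.88, SE 0.16, adjusted p = 0.011). 2700099C18Rik was at 21.9 and 23.7 against 10 and 12.9 CPM (0.99, SE 0.13, adjusted p = 0.00052). Lefty1 was at 79.8 and 55.9 against 119 and 125 CPM (-0.85, SE 0.23, adjusted p = 0.15), below WT in both libraries without passing. The difference in size between the 2 protocols was not tested, since they were fitted in separate tables.

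**Figure D4:**
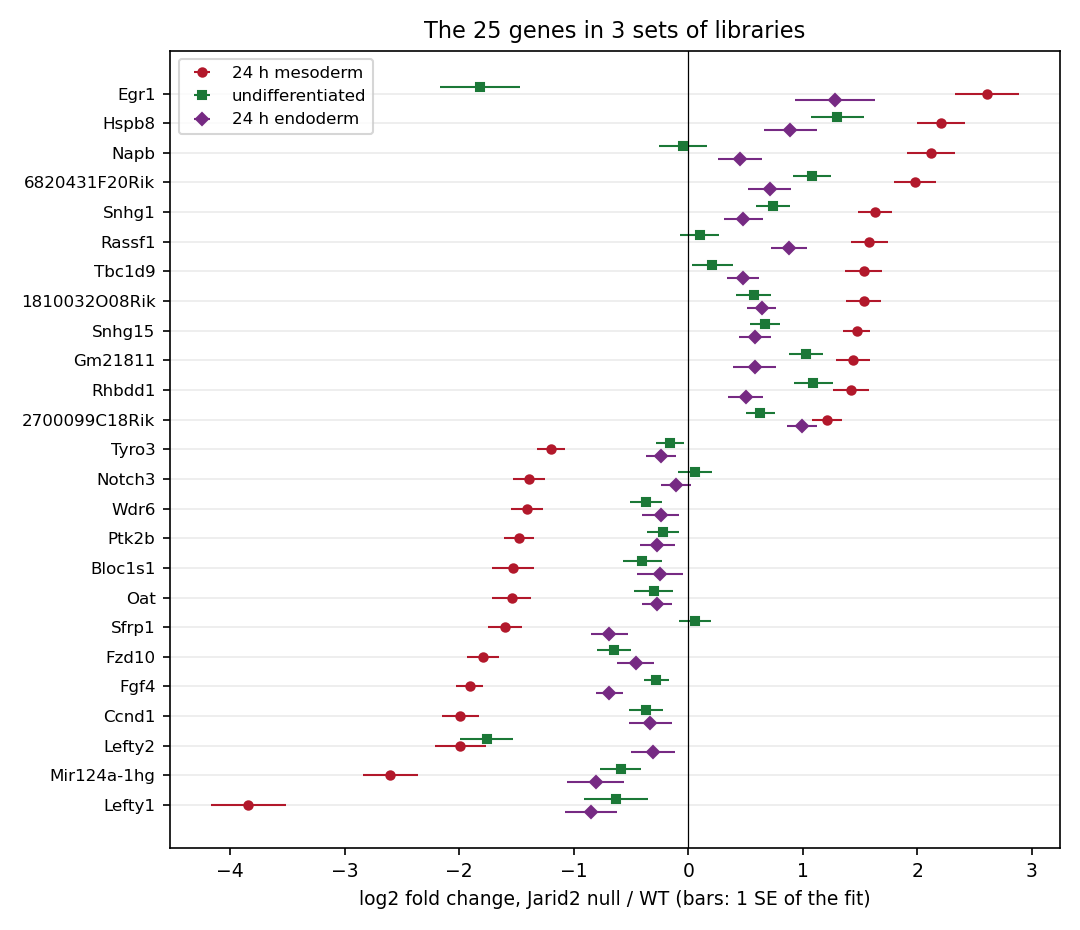
Log2 fold change of Jarid2 null over WT (x, bars of 1 SE of the fit) for the 25 genes at 24 h of mesoderm (red), undifferentiated (green) and at 24 h of endoderm (purple), each from its own libraries. All 25 endoderm values have the sign of the red ones and are smaller, and 21 of 25 undifferentiated values share that sign, with Egr1 at -1.82 the largest exception.

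At 48 h of the same mesoderm series 31 genes (0.169%) were called, 26 higher (0.142%) and 5 lower (0.0272%). Fgf4 was then at 130 and 148 CPM against 254 and 204 CPM (-0.73, adjusted p = 0.00073) and Sfrp1 at 12.1 and 11.7 against 33.5 and 25.8 CPM (-1.32, adjusted p = 0.00013). Lefty1 had no count in 3 of the 4 libraries by then and Lefty2 was below 0.33 CPM in all.

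The Mtf2 null libraries at 24 h were compared with the same WT libraries, so their values are only placed beside these. Lefty1 stood at 54.1 and 57.5 CPM in Mtf2 null, Fgf4 at 127 and 128 CPM, Sfrp1 at 118 and 117 CPM and Ccnd1 at 114 and 118 CPM. Lefty2 was at 186 and 163 CPM, Egr1 at 14.8 and 16.9 CPM and Hspb8 at 27.1 and 26.9 CPM. For Lefty1, Fgf4, Sfrp1 and Ccnd1 the Mtf2 null libraries lay nearer to WT than the Jarid2 null libraries or above WT. Other differences had the same direction, with log2 fold changes of Mtf2 null over WT of -1.12 for Lefty2, 1.95 for Egr1 and 1.03 for Hspb8. Every immediate early gene called higher in Jarid2 null had a positive value in Mtf2 null too, from 0.34 for Maff to 2.41 for Ccn2. Use of the same WT libraries in both comparisons by itself favours a common direction, so this is no independent support.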

How the data were processed

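Total RNA was depleted of ribosomal RNA and sequenced in paired 75 bp reads, per the study's methods. The values the authors deposited for the directed series are estimated counts per gene made with Salmon, not normalized. The submitters' processing notes also name CASAVA, Bowtie2, HTSeq and DESeq2 and the build GRCm38 (mm10). Estimated counts were rounded. All 24 libraries of a series were fitted together with edgeR 4.0.16 in R 4.3.3 (TMM, filterByExpr at its minimum count 10 and total 15, quasi-likelihood F test, 1 mean per genotype and time), so the spread is shared with groups outside the comparison. The undifferentiated libraries entered as an interaction, and endoderm as its own table. The SE was taken as the fitted log2 difference over the square root of F. Counts of 18361 genes were also simulated for Jarid2 null against WT at 24 h of mesoderm differentiation. Of 100 genes changed 4-fold, 64 were called, 58 of 59 at 5 CPM or more, and 0 unchanged genes were called. Simulated counts were drawn independently per gene from the fitted spread, without the shifts by length and GC seen in the real libraries. They therefore give no rate of false calls for such shifts. Gene and transcript annotation was GENCODE for GRCm38.

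Named genes were Jarid2, Mtf2 and Eed, up to 12 per direction that held in all fits with at least 5 CPM and an assigned symbol, the called and the 4 most abundant members of each of 25 lists, up to 5 per direction of the interaction, Nodal, T, Bmp2, Eomes and Gata6, and the 3 most abundant called genes per direction. Genes of lower rank and 10 further lists were named after their values were seen. The comparison and all lists were chosen with earlier results of these data known. Alternatives were DESeq2 1.42.0, RLE or no scaling, 2 other filters, only the libraries compared, a replicate block, other limits, and each library left out. Length and GC offsets (a smooth function of both per library, for 18358 genes) and a crossed block were added after seeing the data.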

Additional observations from a re-analysis of the deposited data

Results flagged for a closer look

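For 8 named genes the difference between Jarid2 null and WT cells was not the same at 24 h as in undifferentiated cells of the same lines, by the interaction test of edgeR (adjusted p under 0.001). It was more negative at 24 h for Lefty1 (-3.21 on the log2 scale), Srgap3 (-2.91), Sfrp1 (-1.66), Fgf4 (-1.63), Ccnd1 (-1.61) and Notch3 (-1.45), and more positive for Egr1 (4.43) and Napb (2.17). Egr1, Fgf4 and Srgap3 kept this call without each of the 8 libraries in turn. Lefty1, Sfrp1 and Ccnd1 kept it in 3 of the 8 fits, Notch3 in 2 and Napb in 1. With 2 libraries a group, no test for a single outlying library could be made.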

How the results depend on the processing

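No named gene that was called changed direction. At 24 h of mesoderm, 135 genes were called higher and 227 lower. Without composition scaling the excess turned, to 208 and 130, and the medians of 4 of 35 lists (lateral and cardiac mesoderm, endothelial and blood progenitor, DNA methylation and heat shock genes) turned from negative to positive. The counts were 349 and 387 without a filter on low counts, 441 and 540 at an adjusted p under 0.05, and 17 and 17 at a log2 fold limit of 2. In a fit of only the 4 libraries 5 and 3 were called, so the number of calls rests on a spread shared with the rest of the series. Leaving out 1 library gave 12 to 214 higher and 15 to 283 lower, the lowest without Jarid2 null replicate 1 and the highest without replicate 2. With length and GC offsets, 154 and 154 were called, and without 1 library 27 and 14 (Jarid2 null replicate 1), 224 and 217 (replicate 2), 44 and 62 (WT replicate 1) and 42 and 65 (WT replicate 2). DESeq2 (174 and 228), RLE scaling (156 and 202) and a stricter filter (165 and 180) moved them by less than 1.5 times.

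At 24 h the correlation of the deviations of replicates 1 and 2 between the genotypes was -0.06. It covers only these libraries, so it does not show whether replicate numbers pair libraries in the other groups of the series. The fit with a replicate block called 126 and 212, and with the numbers of WT crossed 122 and 206.

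For the change since the undifferentiated state, 8 genes were more positive and 17 more negative. These were 38 and 67 by DESeq2, 209 and 197 without a filter, 1 and 0 with only the 8 libraries (edgeR), 4 and 8 with the replicate block, 162 and 296 at an adjusted p under 0.05, 4 and 4 at a fold limit of 2, and 7 and 7 without composition scaling. Leaving out 1 library gave 1 to 28 and 2 to 40, with 3 and 2 without Jarid2 null replicate 1 at 24 h and 28 and 26 without replicate 2. In endoderm 0 were higher and 6 lower by edgeR, with 1 higher by DESeq2, 39 and 35 without a filter and 5 and 12 at an adjusted p under 0.05. Leaving out 1 library gave 0 to 2 higher and 6 lower.

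Of 71 named genes called, 70 stayed called by DESeq2, 71 by RLE, 57 without scaling, 68 with the block, 53 with length and GC offsets and 4 with only the 4 libraries (fewer samples to estimate the spread). The cause of the other losses was not tested. Over the 4 fits without 1 library, 141 calls were kept and 143 lost. Since 64 of 100 simulated 4-fold changes were called at this depth, a gene of low level that was not called may still differ.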
